A study of Mus musculus with 8 samples.

Results

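Voltage-gated ion channel subunits were followed in RNA of mouse libraries labelled spinal cord, taken from a study of Arf1. The members were the genes of the deposited count table whose symbols name a sodium channel subunit (Scn), a Kv1, Kv2, Kv3, Kv4 or Kv7 potassium channel (Kcna, Kcnb, Kcnc, Kcnd, Kcnq), a Kv beta subunit (Kcnab), a pore-forming calcium channel subunit (Cacna1) or a hyperpolarization-activated channel (Hcn), and that held at least 10 expected counts in at least 4 libraries. Of 47643 genes in the table, 51 matched by symbol and 46 of these met the minimum. Just inside it stood Kcnq1, with 10 or more counts in 4 libraries, and Scn10a, in 7 libraries. Just outside stood Scn11a in 2 libraries, Scn4a, Kcna7 and Cacna1f in 1 each and Kcna10 in 0. Kcnq1 met it through the heterozygous libraries alone, with 21, 16, 15 and 10 counts there against 9, 6, 6 and 5 in the homozygous ones, so its lower homozygous level is tied to how it was chosen. Scn2a is listed in the table under its older symbol Scn2a1, falls outside the symbol rule, and is given with the partner genes.

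The 8 libraries came from 8 C57BL/6 mice, of which the labels call 4 heterozygous and 4 homozygous. Per the labels, Arf1, the gene of a small GTPase that starts coat assembly on Golgi membranes, was deleted by intraperitoneal tamoxifen at 100 mg per kg. The dose is recorded alike for all 8 libraries, heterozygous and homozygous. The mice were 2 to 10 months old as a group, with no age or sex for a single mouse, so age and sex cannot be told apart from genotype. The allele and the Cre driver, and so the cells that lost Arf1, are not named in the labels. Each title carries its own animal number, and p-values measure only the spread between these mice.

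Voltage-gated channels open when the membrane potential changes. Sodium channel alpha subunits carry the inward current that starts an action potential, beta subunits modify and anchor them, Kv potassium channels end the action potential and set how fast a neuron can fire again, calcium channels couple voltage to transmitter release and to signalling, and hyperpolarization-activated (HCN) channels carry an inward current at rest. In myelinated axons sodium channels cluster at nodes of Ranvier and Kv1 channels beside them, under the myelin.

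Library totals ranged from 26321522 to 37879426 expected counts. RNA integrity was 9 in 7 libraries and 8 in homozygous replicate 4, and homozygous replicate 3 had the lowest mapped share (92.36%) and the highest share of ribosomal bases (2.44%). Arf1 stood at 296 to 334 CPM (counts scaled to library size by TMM) in the heterozygous libraries and at 22.5, 22.9 and 39.9 CPM in homozygous replicates 2, 3 and 4. The library labelled homozygous replicate 1 held 307 CPM of Arf1, inside the heterozygous range and against its label, so results are given with all 8 libraries and with the 7 that leave it out. Markers of the labelled tissue were mixed. Hox genes of the cord were present (9 genes summed to 46.7 to 85.2 CPM in heterozygous and 28.6 to 70.7 CPM in homozygous libraries). Genes of the cerebral cortex were present too, in all 8 libraries: Neurod6 ranged from 56.1 to 80.6 TPM (a level per transcript length) and Tbr1 from 44.2 to 60.4 TPM. The cortical vesicular glutamate transporter Slc17a7 reached 747 to 1126 CPM against 44.0 to 88.6 CPM for Slc17a6, the form that prevails in the cord, and the motor neuron marker Chat 2.66 to 6.29 CPM. The granule cell gene Gabra6 and the Purkinje cell gene Pcp2 were at 0 in heterozygous replicate 2 and under 0.71 CPM elsewhere. What tissue the values below describe is therefore not settled by the label, and the part of region in them was not tested. These regional gene lists were chosen after values were seen.

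Auxiliary subunits were among the most abundant members. On the TPM scale, which is per transcript length, the Kv beta gene Kcnab2 held 275 ± 17.2 TPM (SD, n = 4) in the heterozygous libraries and the sodium beta gene Scn2b 114 ± 10.2 TPM. Among pores, the Kv3 gene Kcnc1 (74.6 ± 3.37 TPM), the HCN gene Hcn2 (69.3 ± 7.22 TPM) and the sodium pore Scn8a (58.1 ± 5.36 TPM) stood high. The leading members of other groups were Kcna6 of Kv1 (55.0 ± 2.97 TPM), Cacna1a of Cav2 (52.0 ± 8.29 TPM), Kcnd2 of Kv4 (38.6 ± 2.31 TPM), Cacna1g of Cav3 (28.6 ± 2.83 TPM) and Cacna1c of Cav1 (9.60 ± 1.33 TPM).

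**Figure D1:**
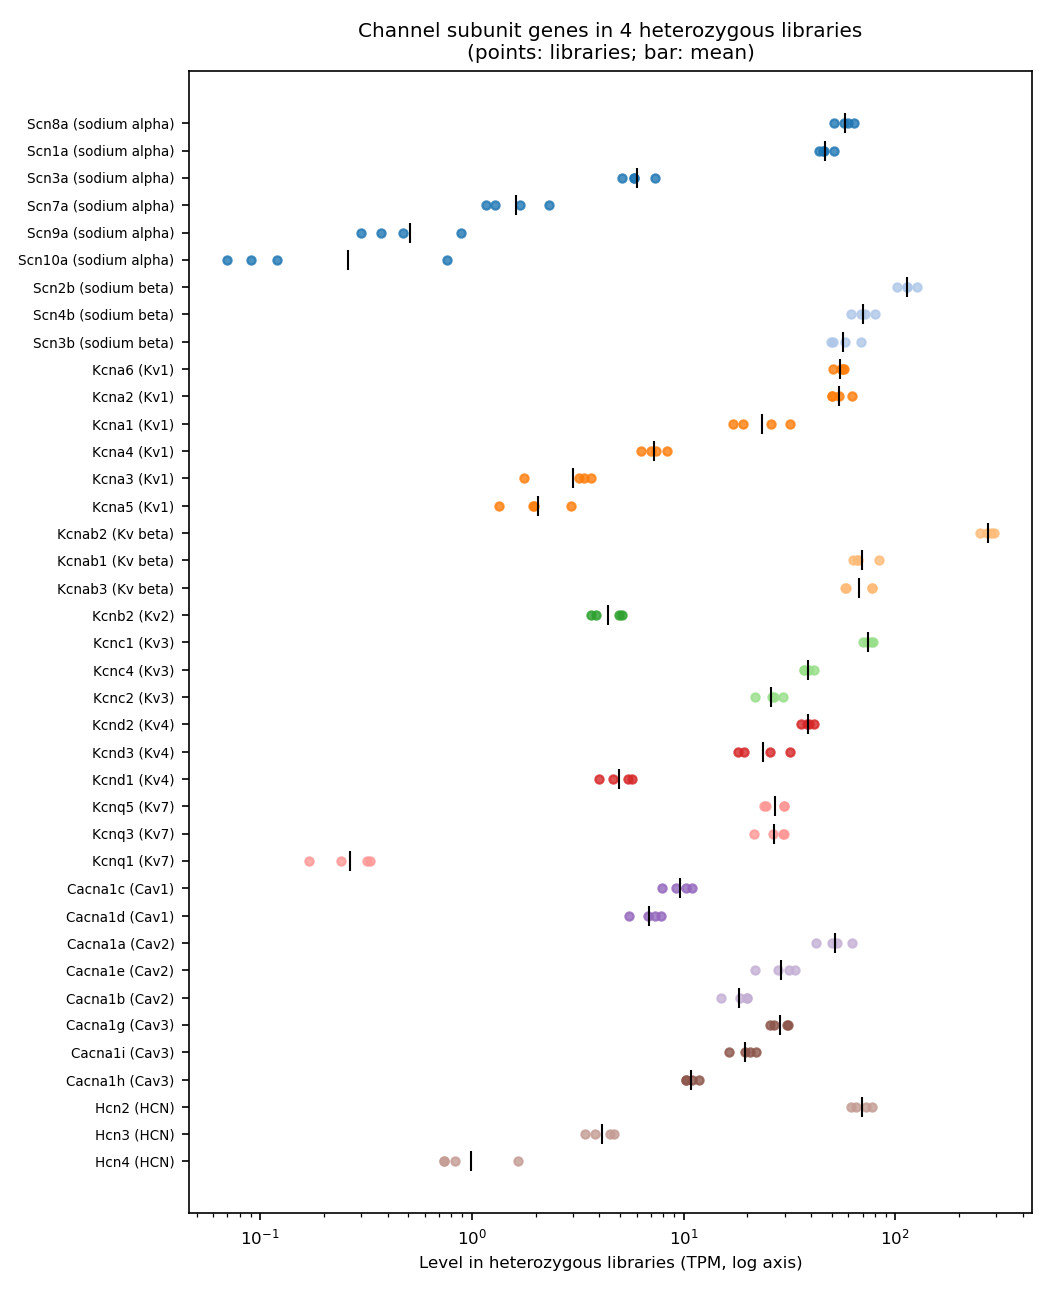
Level of 39 members in the 4 heterozygous libraries (TPM, log axis), grouped by subfamily; points are libraries and the bar is their mean. Kcnab2 and Scn2b lie above 100 TPM, and Kcnq1 and Scn10a lie lowest.

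Over all 46 members, 3 were at or above 100 TPM, 27 between 10 and 100, 11 between 1 and 10, and 5 under 1 TPM, among them Hcn4, Scn9a, Kcnq1 and Scn10a, which lie lowest in the plot of levels. The median member stood at 26.4 TPM, and the median gene tested at 12.1 TPM. Most neighbours in the order did not differ beyond their spread: in 38 of 45 neighbouring pairs the ranges of the 4 libraries overlapped. Kcnab2 and Scn2b were among the pairs that did not overlap. Among sodium pores that are members, Scn8a and Scn1a (46.6 ± 3.26 TPM), the pores of nodes and of fast-spiking interneurons, were far above Scn3a (6.03 ± 0.927 TPM), the form known from immature neurons, and Scn7a (1.61 ± 0.512 TPM). Scn2a1, outside the symbol rule, is not in this order. Its heterozygous mean was 271 CPM, beside 358 CPM for Scn8a and 191 CPM for Scn1a, a scale that is not per length. The pores known from sensory ganglia were near the floor of the data, with Scn9a at 0.508 ± 0.264 TPM and Scn10a at 0.260 ± 0.334 TPM.

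Between genotypes, channel subunits differed little, and what differences there were lay mostly on the lower side in homozygous libraries. Scn1a, which encodes the sodium channel pore of fast-spiking inhibitory neurons, was the 1 member that edgeR called, and in that test only with 7 libraries, where it fell by 0.35 on the log2 scale, a change of -21.7%. By edgeR's quasi-likelihood test with Benjamini-Hochberg adjustment at 0.05, 0 of 45 members tested with 8 libraries were called, where 0 of 16511 genes were called (a background of 0.0%). With 7 libraries, 1 of 46 members was called lower against a background of 0.67% of 16560 genes, and 0 higher against 0.55%. At an unadjusted p under 0.05 the 8-library test had 11 members lower and 1 higher, with 8.9% and 7.87% of all genes, and the 7-library test had 12 lower and 2 higher, with 9.94% and 9.51% of all genes. The 12 include Kcnq1, whose lower homozygous level is tied to how it was chosen. By DESeq2 with all 8 libraries, 7 members passed, where 4.11% of all genes did: 6 lower (background 2.48%), among them Hcn2, Kcna2, Kcnc1, Scn1a and Scn7a, and 1 higher (Kcna5, background 1.64%). With 7 libraries DESeq2 again passed 7 (background 6.54%), 6 lower with Kcna6 in place of Kcna2 (background 3.94%) and Kcna5 higher (background 2.6%). By limma-voom 0 members passed with either set of libraries.

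The members' median log2 fold change was -0.11 with 8 libraries, with 30 of 45 below 0, and -0.13 with 7, with 34 of 46 below 0. The 34 include Kcnq1, which was chosen through the heterozygous libraries. Over all genes tested the medians were 0.0015 and 0.0027, and 49.6% and 49.5% were below 0. The pan-neuronal list of 10 genes had medians of -0.027 and -0.021, and their summed level was 7952 to 9460 CPM in heterozygous and 8086 to 9081 CPM in homozygous libraries. With 7 libraries its estimates ran from -0.33 for Tubb3, lower without overlap (edgeR-adjusted p = 0.0918), through Stmn2 (-0.18), Map2 (-0.14), Snap25 (-0.046), Syt1 (-0.0047) and Rbfox3 (0.045) to Eno2 (0.097, higher without overlap) and Uchl1 (0.10). In bulk RNA, fewer cells of a type and less RNA per cell cannot be told apart.

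**Figure D2:**
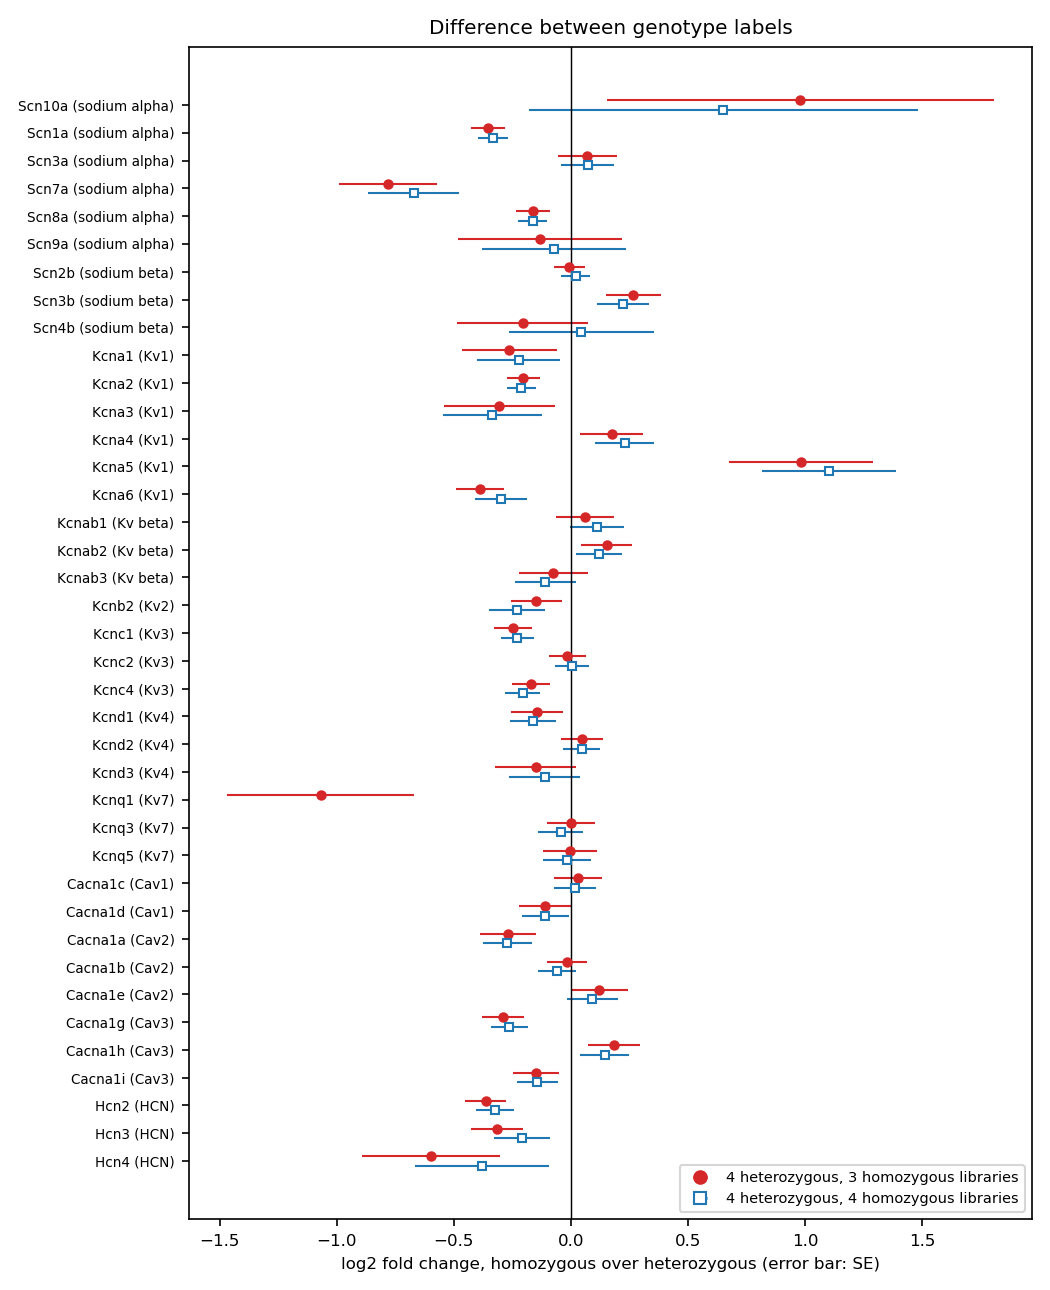
Log2 fold change, homozygous over heterozygous, of 39 members (x axis) with the standard error of each; filled circles use 7 libraries and open squares all 8, and Kcnq1 was tested with 7 only. The estimates of the HCN, Kv2, Kv3 and Kv7 genes lie at or left of 0 with 7 libraries, and Kcna5 and Scn10a lie farthest to the right. Kcnq1, of Kv7, entered the members by way of the heterozygous libraries.

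With 8 libraries every homozygous library was below every heterozygous one for 5 of 45 members tested, among them Scn1a, Hcn2, Kcnc1 and Kcna2, against a background of 4.67%, and above for 1 member, Kcna5, against 4.61%. With 7 libraries 9 members were lower without overlap, the same 5 and Kcna6, Scn7a, Hcn3 and Kcnq1, against a background of 8.77%, and Kcna5 was higher, against 9.76%. Kcnq1 met the minimum through the heterozygous libraries alone, so its place among the 9 is tied to how it was chosen.

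**Figure D3:**
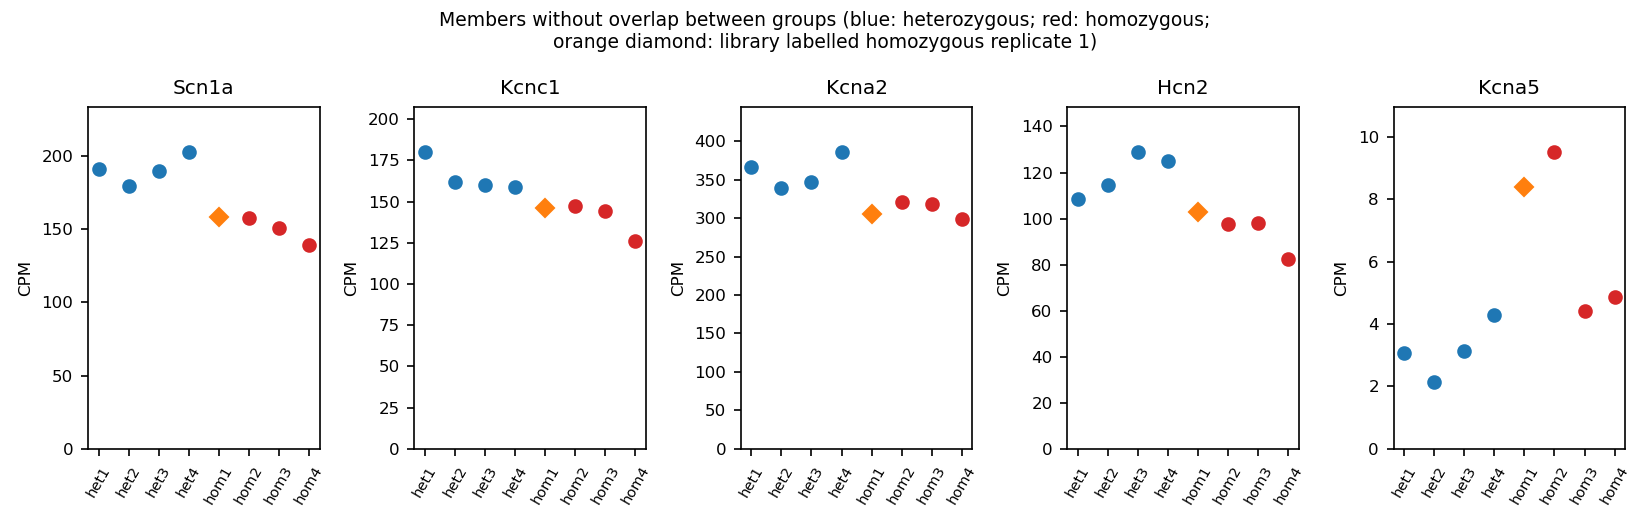
Level in CPM (y axis, from 0) of Scn1a, Kcnc1, Kcna2, Hcn2 and Kcna5, whose heterozygous (blue) and homozygous (red) libraries did not overlap with all 8 libraries; the diamond is the library labelled homozygous replicate 1. For the first 4 the homozygous libraries are the lower ones, by margins that are small beside the level, and for Kcna5 they are the higher ones.

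Among sodium channel pores, Scn1a was 191, 179.5, 189.5 and 203 CPM in heterozygous replicates 1 to 4, and 159, 158, 151 and 139 CPM in homozygous replicates 1 to 4. All homozygous libraries lay below all heterozygous ones, the library with heterozygous-level Arf1 included. With 8 libraries the log2 fold change was -0.33 (with an SE of 0.064, edgeR-adjusted p = 0.0974), and with 7 it was -0.35 (with an SE of 0.071, edgeR-adjusted p = 0.0498). The 7-library call rests at the threshold. It was lost under 9 of 16 alternatives, among them each library left out, with adjusted p from 0.052 to 0.178 in those 9 and from 0.000171 over all 16, while the log2 fold change ranged from -0.51 to -0.31. With 8 libraries DESeq2 passed Scn1a (adjusted p = 0.000216). Scn1a is among the 11 members with expected counts that were not whole, as when reads are divided between similar genes. For the 5 inhibitory neuron markers the median log2 fold change was 0.038 (8 libraries) and -0.036 (7 libraries), and 0 were called by edgeR. They went both ways with 7 libraries, from Slc6a5 (-1.03, unadjusted p = 0.0427, adjusted p = 0.238 by edgeR) and Pvalb (-0.49) to Gad2 (0.034) and Gad1 (0.086), and their part in the Scn1a values was not tested. Scn8a, the main pore of mature nodes of Ranvier, was 378, 363, 327 and 364 CPM in heterozygous and 319, 324, 333 and 303 CPM in homozygous libraries. Heterozygous replicate 3 lay among the homozygous libraries, and the difference did not pass (log2 fold change -0.16 with an SE of 0.072, edgeR-adjusted p = 0.252 with 7 libraries). Scn1a as a percentage of Scn8a, from TPM, was 80.5 ± 6.12% (SD, n = 4) in heterozygous and 73.8 ± 3.85% (SD, n = 4) in homozygous libraries, and the ranges overlapped. Scn1a lies at chr2:66270778-66440840 on the minus strand (mm10) within a run of 4 members, Scn3a, Scn1a, Scn9a and Scn7a, at chr2:65457118-66784914. Of these, Scn3a and Scn9a did not pass either test (log2 fold changes of 0.070 and -0.13 with 7 libraries). Scn7a (log2 fold change -0.78 with 7 libraries) passed by DESeq2 with both sets of libraries, but not by edgeR.

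Scn7a, a sodium channel relative expressed by glia and Schwann cells that does not open with voltage as the others do, was 4.92, 5.49, 7.26 and 8.98 CPM in heterozygous and 5.07, 3.65, 3.83 and 4.14 CPM in homozygous libraries. Without the library labelled homozygous replicate 1 the groups did not overlap (log2 fold change -0.78 with an SE of 0.21, edgeR-adjusted p = 0.0925). Beside it, the Schwann cell gene Prx was 12.3, 29.9, 61.8 and 33.2 CPM in heterozygous and 2.14, 3.91, 8.58 and 1.34 CPM in homozygous libraries. Pmp2, another Schwann cell gene, was also higher in every heterozygous than in any homozygous library, and Egr2 the reverse. The part of Schwann cell content in the Scn7a values was not tested. The 4 meningeal fibroblast markers moved alike, with sums of 31.7 to 72.8 CPM against 10.7 to 24.7 CPM.

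Scn10a, a pore of pain-sensing ganglion neurons, was 0.454, 0.266, 0.356 and 2.59 CPM in heterozygous and 0.418, 3.20, 1.05 and 1.27 CPM in homozygous libraries. Heterozygous replicate 4 and homozygous replicate 2 stood high and the groups overlapped (log2 fold change 0.98 with an SE of 0.83, edgeR-adjusted p = 0.546 with 7 libraries). Heterozygous replicate 4 also had the highest Trpv1 (0.524 CPM), P2rx3 (2.04 CPM) and Scn11a (1.34 CPM) of all libraries, genes known from the same ganglion neurons. Homozygous replicate 2 held Trpv1 at 0 and Scn11a at 0.0744 CPM. Of the 6 sensory ganglion markers, Nefh, a neurofilament gene also found in large central neurons, held most of the summed level, with 234 to 370.3 CPM in heterozygous and 130.4 to 290.9 CPM in homozygous libraries, and was called lower by edgeR with 7 libraries (adjusted p = 0.0475). Mrgprd was at most 0.157 CPM and at 0 in all homozygous libraries, Calca lay between 3.46 and 11.3 CPM, and Tac1 was highest in homozygous replicates 1 and 2 (44.5 and 42.0 CPM). The part of ganglion RNA in the Scn10a values was not tested. Scn4a, the pore of skeletal muscle, failed the minimum because it was at 0.962 CPM in heterozygous replicate 1 and at most 0.131 CPM elsewhere. The 5 skeletal muscle markers summed to 446 CPM in that library and to 5.94 to 54.1 CPM in the others, as the plot of sodium channel and marker genes shows.

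**Figure D4:**
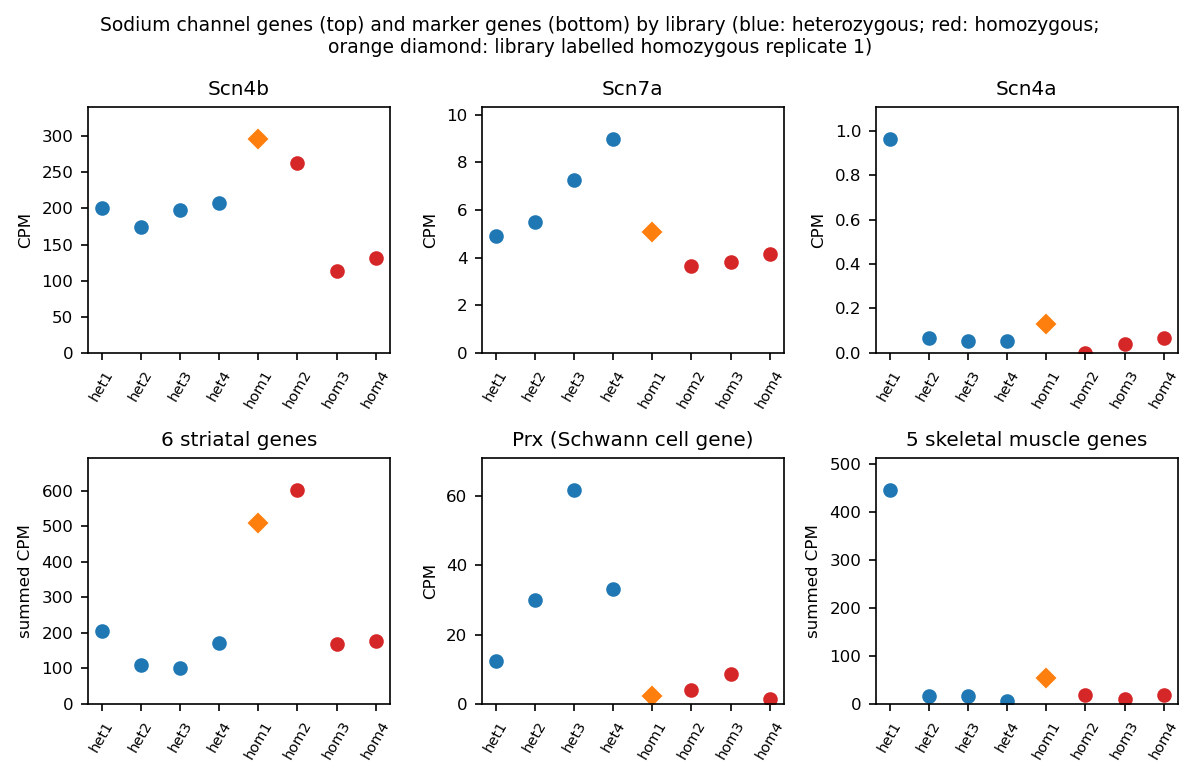
Scn4b, Scn7a and Scn4a (top) and summed striatal genes, the Schwann cell gene Prx and summed skeletal muscle genes (bottom) in each library, in CPM from 0; blue is heterozygous, red homozygous, and the diamond is the library labelled homozygous replicate 1. Scn4b and the striatal genes are both highest in homozygous replicates 1 and 2, and Scn4a and the muscle genes in heterozygous replicate 1.

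None of the sodium beta subunits was called by edgeR. Scn2b stayed within 261 to 304 CPM in all 8 libraries. Scn3b was 111, 130.0, 113 and 138 CPM in heterozygous and 129.9, 172, 147 and 125 CPM in homozygous libraries, with overlap (log2 fold change 0.27 with an SE of 0.12, edgeR-adjusted p = 0.251 with 7 libraries). Scn4b, the beta subunit behind resurgent sodium current and abundant in the striatum, was 201, 174, 197 and 207 CPM in heterozygous and 296, 263, 113 and 131 CPM in homozygous libraries. Homozygous replicates 1 and 2 were above and replicates 3 and 4 below every heterozygous library, so the group mean (log2 fold change 0.044 with an SE of 0.31, edgeR-adjusted p = 0.959 with 8 libraries) describes none of the 4. The 6 striatal genes, such as Drd1 and Adora2a, were high in the same libraries, with sums of 508 and 602 CPM in homozygous replicates 1 and 2 and 102 to 205 CPM in the other 6. The part of striatal RNA in the Scn4b values was not tested.

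Kv1 channels, which set the threshold and stop repeated firing, held the 1 member that stood higher without overlap. Kcna5 was 3.07, 2.13, 3.15 and 4.29 CPM in heterozygous and 8.38, 9.53, 4.43 and 4.86 CPM in homozygous libraries. The margin was narrow, since homozygous replicate 3 and heterozygous replicate 4 nearly met. The highest values were in homozygous replicates 1 and 2, the libraries with the high striatal sums. The log2 fold change was 1.10 (with an SE of 0.28, edgeR-adjusted p = 0.139) with 8 libraries and 0.98 (with an SE of 0.31, edgeR-adjusted p = 0.136) with 7. Without homozygous replicate 2 as well it was 0.55 (with an SE of 0.25, edgeR-adjusted p = 0.330). Kcna4, an inactivating Kv1 pore, was highest in the same 2 libraries (23.4 and 25.5 CPM, against 16.8 to 19.2 CPM in the other 6). Its log2 fold change of 0.17 (with an SE of 0.13, edgeR-adjusted p = 0.504 with 7 libraries) turned to -0.028 without homozygous replicate 2. The part of striatal RNA in the Kcna5 and Kcna4 values was not tested.

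Kcna2, with Kcna1 the main axonal Kv1 pore of the juxtaparanode, was 366, 339.6, 346 and 386 CPM in heterozygous and 305, 321, 318 and 298 CPM in homozygous libraries. All homozygous libraries lay below, by little (log2 fold change -0.21 with an SE of 0.061, edgeR-adjusted p = 0.150 with 8 libraries; -0.20 with an SE of 0.070, adjusted p = 0.156 with 7). Kcna6 was 134, 135, 117 and 129 CPM in heterozygous and 124, 84.0, 96.9 and 114 CPM in homozygous libraries, and only the library labelled homozygous replicate 1 reached the heterozygous range (log2 fold change -0.39 with an SE of 0.10, edgeR-adjusted p = 0.0918 with 7 libraries). Kcna1 overlapped, with 39.0 to 66.6 CPM against 38.4 to 51.4 CPM, and Kcna3 ranged from 1.81 to 3.72 CPM with overlap. Kcna5, Kcna1 and Kcna6 lie in a run at chr6:126532551-126740674, and their 7-library estimates differ in sign (0.98, -0.26 and -0.39). Of the Kv beta subunits, which ride on Kv1 channels, none was called by edgeR: Kcnab2 was 463, 445, 459 and 421 CPM in heterozygous and 453, 572, 518 and 401 CPM in homozygous libraries. Homozygous replicates 2 and 3 were high and replicate 4 low. Kcnab1 was again highest in homozygous replicates 1 and 2 (144 and 158 CPM, against 108 to 129 CPM in the other 6), and Kcnab3 ranged from 67.3 to 96.9 CPM with overlap.

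Kv3 channels, which let neurons fire fast by ending each spike quickly, gave no call by edgeR, though 3 of the 4 genes with 8 libraries and 2 with 7 were lower at an unadjusted p under 0.05, where 8.9% and 9.94% of all genes were. Kcnc1 was 180.4, 162, 160.3 and 159 CPM in heterozygous and 146, 148, 144 and 126 CPM in homozygous libraries. Heterozygous replicate 1 was the highest, homozygous replicate 4 the lowest, and a gap separated the groups (log2 fold change -0.25 with an SE of 0.079, edgeR-adjusted p = 0.137 with 7 libraries). Kcnc4 was lower with overlap (log2 fold change -0.17 with an SE of 0.080, edgeR-adjusted p = 0.277 with 7 libraries). Kcnc2 differed by less than its spread, with 90.9 ± 8.17 CPM (SD, n = 4) in heterozygous and 91.2 ± 2.91 CPM (SD, n = 4) in homozygous libraries. Within the summed Kv3 TPM, Kcnc2 made up 13.3 ± 1.40% (SD, n = 4) of the heterozygous and 15.9 ± 0.526% (SD, n = 4) of the homozygous level, and each homozygous library (15.3% to 16.5%) was above each heterozygous one (11.3% to 14.6%). Kcnc1 and Kcnc4, which were lower in CPM, are part of that sum, so the share is not a separate result. Pvalb, the marker of fast-spiking interneurons, ranged from 49.7 to 125 CPM in heterozygous and from 49.8 to 65.3 CPM in homozygous libraries, and its part in the Kv3 values was not tested.

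Kv2, Kv4 and Kv7 pores gave no call by edgeR. Kcnd2, which carries the dendritic A-type current, was 112, 116, 107 and 112 CPM in heterozygous and 115, 132, 114 and 99.8 CPM in homozygous libraries, with overlap (log2 fold change 0.048 with an SE of 0.091, edgeR-adjusted p = 0.803 with 7 libraries). Kcnb2, Kcnd1, Kcnd3, Kcnq3 and Kcnq5 all overlapped too, with 7-library log2 fold changes of -0.15 (Kcnd3) to -0.00084 (Kcnq3). Kcnq1, known from heart and epithelia, was 0.561, 0.532, 0.411 and 0.262 CPM in heterozygous and 0.235, 0.223, 0.242 and 0.163 CPM in homozygous libraries, levels of at most 21 counts that entered the members by way of the heterozygous group.

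None of the calcium channel pores was called by edgeR with 8 or 7 libraries, and all overlapped between groups. Cacna1a, the P/Q-type pore of fast synapses, was 142, 116, 108 and 116 CPM in heterozygous and 99.6, 107, 109 and 83.7 CPM in homozygous libraries. Heterozygous replicate 3 fell below homozygous replicate 3 (log2 fold change -0.27 with an SE of 0.12, edgeR-adjusted p = 0.251 with 7 libraries). Cacna1g, a T-type pore of burst firing, was 65.8, 64.1, 53.3 and 65.2 CPM in heterozygous and 54.5, 47.0, 54.3 and 51.2 CPM in homozygous libraries. Heterozygous replicate 3 alone sat among the homozygous libraries (log2 fold change -0.29 with an SE of 0.088, edgeR-adjusted p = 0.123 with 7 libraries). On the log2(TPM + 1) and log2(TPM + 0.1) scales limma passed Cacna1g with 7 libraries (adjusted p = 0.0282 and 0.0267). On these scales 12.7% and 13.2% of all genes were called lower, and 0.574% and 0.598% higher. Cacna1h, another T-type pore, went the other way with overlap, 41.1, 39.9, 37.7 and 44.7 CPM against 41.5, 55.6, 43.9 and 39.8 CPM, and homozygous replicate 2 set the difference: the log2 fold change was 0.18 with 7 libraries and 0.033 without that library. The L-type pore Cacna1c was 73.9, 66.3, 58.9 and 72.8 CPM in heterozygous and 66.8, 78.2, 68.0 and 62.2 CPM in homozygous libraries, fully mixed (log2 fold change 0.030 with an SE of 0.10, edgeR-adjusted p = 0.894 with 7 libraries). Cacna1b, Cacna1d, Cacna1e and Cacna1i overlapped too, with log2 fold changes of -0.15 to 0.12.

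All 4 HCN genes had estimates below 0, where 49.6% (8 libraries) and 49.5% (7 libraries) of all genes were. Hcn2 passed by DESeq2 but not by edgeR with either set of libraries. Hcn2, the abundant HCN pore of these libraries, was 108, 115, 129 and 125 CPM in heterozygous and 103, 97.7, 98.1 and 82.4 CPM in homozygous libraries. The groups did not overlap, and the library labelled homozygous replicate 1 was the nearest to the heterozygous ones (log2 fold change -0.32 with an SE of 0.083, edgeR-adjusted p = 0.135 with 8 libraries; -0.36 with an SE of 0.089, adjusted p = 0.0761 with 7). Hcn3 was 6.52 to 7.64 CPM in heterozygous libraries and 5.72 to 6.03 CPM in homozygous replicates 2 to 4, while the library labelled homozygous replicate 1 held 7.57 CPM (log2 fold change -0.32 with an SE of 0.11, edgeR-adjusted p = 0.162 with 7 libraries). Hcn4 ranged with overlap from 1.19 to 3.25 CPM. Hcn2 made up 80.9 ± 3.23% (SD, n = 4) of the summed HCN TPM in heterozygous and 79.2 ± 1.38% (SD, n = 4) in homozygous libraries.

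Across all members the lower values were not the property of a single homozygous library, but neither were they even. On a log2(CPM + 0.1) scale relative to the heterozygous mean, the median member stood at -0.073, -0.058, -0.091 and -0.18 in homozygous replicates 1 to 4, with 28, 27, 30 and 40 of 46 members below 0. The 46 include Kcnq1, which was chosen through the heterozygous libraries. The heterozygous libraries were at 0.057, 0.0014, -0.12 and 0.070, so heterozygous replicate 3 was lower than 3 of the 4 homozygous libraries. Homozygous replicate 4, the lowest, also had the lowest RNA integrity number and the lowest median of pan-neuronal genes (-0.13), while homozygous replicate 3 combined -0.091 for members with 0.087 for pan-neuronal genes. The part of these in the members' values was not tested. Without homozygous replicate 4 the 7-library median over members was -0.071, and without heterozygous replicate 1 it was -0.054.

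**Figure D5:**
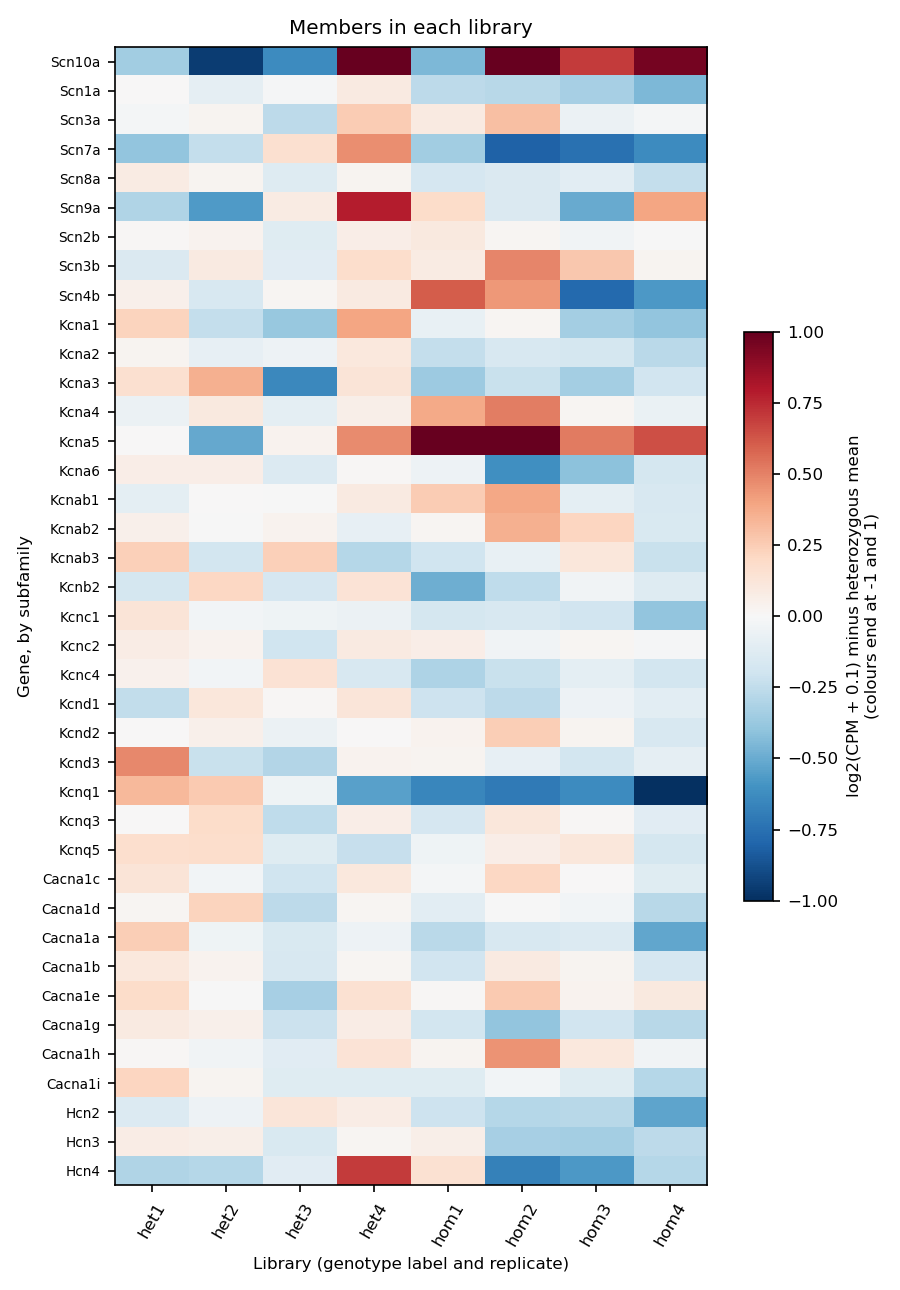
Difference of 39 members from the gene's heterozygous mean in each library (log2 of CPM + 0.1; blue lower, red higher, colours end at -1 and 1). Blue prevails in homozygous replicate 4, heterozygous replicate 3 is also pale blue in most members, and the Kcna5 and Scn4b lines are red in homozygous replicates 1 and 2.

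None of the genes that work with these channels was called by edgeR. Of 70 partner genes present, 65 were tested with either set of libraries. At an unadjusted p under 0.05, 9 were lower and 1 higher with 8 libraries, and 12 lower and 2 higher with 7. Over all genes the shares were 8.9% lower and 7.87% higher, and 9.94% and 9.51%. By DESeq2 2 were lower with 8 libraries (Kcns3, Pex5l), where 2.48% of all genes were, and 5 with 7 (Ank2, Cntn2, Epb41l3, Kcng4, Kcns3), where 3.94% were. By limma-voom 0 passed. Kcng4, a silent Kv subunit that joins Kv2 pores, was 22.2, 24.1, 29.8 and 31.8 CPM in heterozygous and 26.9, 11.6, 14.2 and 18.2 CPM in homozygous libraries. The library labelled homozygous replicate 1 lay among the heterozygous ones and the other 3 below them (log2 fold change -0.88 with an SE of 0.18, edgeR-adjusted p = 0.0525 with 7 libraries). Kcng4 is 1 of 185 genes in the authors' deposited table of their own comparison, which gives it a log2 fold change of -1.03 and a false discovery rate of 3.89e-05, and which lists 0 of the 46 members. The estimates here were -0.60 with 8 libraries and -0.88 with 7, and which libraries the authors' values rest on was not determined. With 185 genes listed, absence from their table gives no test value for a member. Kcns3, the silent subunit of fast-spiking interneurons, was lower without overlap in all 4 homozygous libraries, with 10.05 to 12.5 CPM against 7.78 to 9.30 CPM (log2 fold change -0.45 with an SE of 0.11, edgeR-adjusted p = 0.0822 with 7 libraries). Pex5l, which binds HCN pores and guides their traffic, was 199 to 223 CPM against 188 to 192 CPM, also without overlap (edgeR-adjusted p = 0.166 with 7 libraries).

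Among 13 membrane clustering partners, many of which hold Kv1 channels beside the node, 9 were below 0 with 7 libraries, at a median of -0.17. Over all genes tested with 7 libraries, 49.5% were below 0. Epb41l3, the paranodal band protein, was 237 to 263 CPM in heterozygous libraries, 198, 206 and 218 CPM in homozygous replicates 2 to 4, and 262 CPM in the library labelled homozygous replicate 1 (edgeR-adjusted p = 0.0761 with 7 libraries). Cntn2, the juxtaparanodal adhesion protein, gave 176 to 191 CPM, 145 to 168 CPM and 176 CPM in the same order (edgeR-adjusted p = 0.129 with 7 libraries). The 8 calcium channel auxiliary subunits had a median of 0.020, with Cacnb1 (log2 fold change -0.11) and Cacnb2 (0.097) as the genes of smallest p with 7 libraries. The 5 oligodendrocyte markers had a median of -0.29 with 7 libraries, all 5 below 0 and 0 called by edgeR, and summed to 8075 to 9368 CPM in heterozygous and 5731 to 11780 CPM in homozygous libraries; their part in the values of axonal genes was not tested. Scn2a1 was 271 ± 34.6 CPM (SD, n = 4) in heterozygous and 254 ± 14.1 CPM (SD, n = 4) in homozygous libraries. The genes of smallest p in the other lists were Kcnh2 (-0.32) and Kcnh5 (-0.27), Kcnn2 (-0.23) and Kcnma1 (-0.29), Fgf11 (-0.27) and Fgf14 (0.17), and Kcnip2 (0.36) beside Pex5l, all as 7-library log2 fold changes that did not pass.

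Promoters are shown for members whose groups did not overlap with 8 libraries, to set side by side the start sites of genes that lay lower and of the 1 that lay higher. Each is 300 bases from RefSeq on GRCm38.p6, from 250 before to 50 after the start, read 5′ to 3′ on the gene's strand. Capitals mark GC boxes, GGGCGG or its reverse complement CCGCCC, and no TATAAA stood in any of the 5. The sequences are of Scn1a (chr2:66440788-66441087, minus strand), Hcn2 (chr10:79716384-79716683, plus strand), Kcnc1 (chr7:46396218-46396517, plus strand), Kcna2 (chr3:107101317-107101616, plus strand) and Kcna5 (chr6:126535506-126535805, minus strand).
Scn1a: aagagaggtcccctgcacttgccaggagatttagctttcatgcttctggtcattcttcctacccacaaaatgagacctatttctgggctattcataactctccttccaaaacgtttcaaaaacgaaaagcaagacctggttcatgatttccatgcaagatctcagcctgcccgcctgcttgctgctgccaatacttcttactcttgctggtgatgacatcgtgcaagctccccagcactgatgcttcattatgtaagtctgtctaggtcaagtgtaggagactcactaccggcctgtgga
Hcn2: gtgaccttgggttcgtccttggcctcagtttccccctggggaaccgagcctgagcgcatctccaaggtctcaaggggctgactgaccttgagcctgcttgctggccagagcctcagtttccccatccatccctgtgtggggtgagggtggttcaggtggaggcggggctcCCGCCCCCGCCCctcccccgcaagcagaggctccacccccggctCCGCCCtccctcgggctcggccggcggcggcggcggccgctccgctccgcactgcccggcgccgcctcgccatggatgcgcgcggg
Kcnc1: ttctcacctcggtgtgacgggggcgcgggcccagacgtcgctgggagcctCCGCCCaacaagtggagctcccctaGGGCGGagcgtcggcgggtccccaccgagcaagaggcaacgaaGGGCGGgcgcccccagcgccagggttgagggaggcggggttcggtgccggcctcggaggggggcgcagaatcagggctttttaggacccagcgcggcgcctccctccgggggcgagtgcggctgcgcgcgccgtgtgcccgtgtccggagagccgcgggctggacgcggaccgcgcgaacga
Kcna2: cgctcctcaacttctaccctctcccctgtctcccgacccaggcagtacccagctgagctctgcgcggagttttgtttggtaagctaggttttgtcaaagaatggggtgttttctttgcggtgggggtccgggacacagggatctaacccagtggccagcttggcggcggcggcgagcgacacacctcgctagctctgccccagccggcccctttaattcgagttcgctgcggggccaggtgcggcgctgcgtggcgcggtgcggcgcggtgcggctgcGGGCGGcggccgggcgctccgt
Kcna5: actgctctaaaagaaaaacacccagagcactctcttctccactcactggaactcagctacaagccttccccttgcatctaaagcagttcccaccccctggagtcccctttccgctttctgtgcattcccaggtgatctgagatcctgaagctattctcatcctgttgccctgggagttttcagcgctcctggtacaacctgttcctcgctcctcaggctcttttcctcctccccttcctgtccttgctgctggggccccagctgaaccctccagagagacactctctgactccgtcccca
The windows differed in base composition: Hcn2 and Kcnc1 each held 3 GC boxes in windows of 72.3% and 74.7% GC, Kcna2 held 1 at 66.7% GC, and Scn1a held 0 at 47.3% GC, as did Kcna5 at 55.0% GC. Of the 46 members 27 had an entry, with 39 promoters in all. GGGCGG on either strand was in 38.5% of these and in 35.7% of all 32851 promoters, TATAAA in 5.13% against 13.6%, and CCAAT in 25.6% against 37.4%. The median promoter of members had 57.3% GC and 11 CpG sites, that of all genes 52.7% and 7. These shares are descriptions of letters in a window and carry no test.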

How the data were processed

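RNA of 8 mice was measured by RNA-seq and grouped by the genotype label. The tools named in the submitters' processing notes are cutadapt, STAR, Picard and RSEM, with mm10 as the genome build; no versions, settings or annotation are stated in the labels. The authors' deposited gene tables hold RSEM expected counts, TPM and FPKM, per the file headers. A further table deposited by the authors holds their own test results as log2 values and p-values, per the file headers. The authors' deposited sequencing report holds percent values for mapping and ribosomal bases, and RNA integrity as a score.

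Rounded expected counts of the whole table were tested, homozygous against heterozygous, by edgeR 4.0.16 in R 4.3.3 (TMM, filterByExpr by group, robust quasi-likelihood fit, Benjamini-Hochberg adjustment over all genes tested, threshold 0.05), with 8 libraries and without the library labelled homozygous replicate 1. Of the members, 45 passed the filter with 8 libraries and 46 with 7. For 11 members, Scn1a among them, some expected counts were not whole (tolerance 0.005), as when RSEM divides reads between similar genes, which makes them less certain. The other 35 had whole counts in all libraries. CPM are TMM-scaled, and each SE belongs to a log2 fold change. Levels of different genes were compared as TPM. Alternatives were other scalings and filters, DESeq2 1.42.0, limma 3.58.1 (voom, and log2(TPM + 1) or log2(TPM + 0.1)), a fit that was not robust, an adjusted p of 0.1, and each library left out. The edgeR fits were also run on simulated data, with larger fold changes than most members had. The simulation therefore does not show what could be detected at the size of those differences. Tables and figures were made in Python 3.11.15 (pandas 2.3.3, numpy 2.4.6, matplotlib 3.10.9). Positions are from GENCODE release M21 on GRCm38, also called mm10, which held 47224 of the 47643 identifiers.

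Members, partner lists and marker lists were chosen with earlier results of these data known, and the regional lists (forebrain, striatum, cord Hox genes, thalamus, cerebellum) after values were seen. Named members were those called, up to 6 of smallest p in each direction per set of libraries, the most abundant of each subfamily, and up to 10 whose groups did not overlap; others are given by range. Partners named are the 2 of smallest p in each list, and Scn2a1 and Ank2 were added after values were seen. Results for 9 genes, 7 of them members, are not reported here, though counts and medians over lists include them.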

Additional observations from a re-analysis of the deposited data

Results flagged for a closer look

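In 88 groups of 4 libraries (44 genes in 2 genotypes), 8 held a library far from its 3 companions by Dixon's test at 95%, where chance gives about 1 in 20 groups. Kcnc1 was set apart in both groups, at 180.4 CPM in heterozygous replicate 1 (others 159 to 162 CPM) and at 125.9 CPM in homozygous replicate 4 (others 144 to 148 CPM). Cacna1g was 53.3 CPM in heterozygous replicate 3, where the others held 64.1 to 65.8 CPM. Hcn3 was 7.57 CPM in the library labelled homozygous replicate 1, where the others held 5.72 to 6.03 CPM. Hcn4 was 3.25 CPM and Scn10a 2.59 CPM in heterozygous replicate 4, against at most 1.81 and 0.454 CPM in the other heterozygous libraries. In heterozygous replicate 1, Kcna7 was 1.42 CPM and Scn4a 0.962 CPM, against at most 0.0332 and 0.0665 CPM in the other heterozygous libraries; neither met the minimum for a member.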

How the results depend on the processing

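No paired analysis was possible because the labels give no replicate numbers, and those used here are only names. The count of members called moved with the method. With 8 libraries it was 0 by edgeR, 7 by DESeq2 (background 4.11% of genes) and 1 at an adjusted p of 0.1. It was 0 to 1 when each library was left out, the 1 being Scn1a without homozygous replicate 1 (background 1.22%). With 7 libraries it was 1 by edgeR, 5 with no filter (background 1.65% of genes), 7 by DESeq2 (6.54%) and 0 by limma-voom (0.948%). The non-robust fit gave 0 (0.827%), log2(TPM + 1) gave 9 (13.2%) and log2(TPM + 0.1) gave 10 (13.8%). Leaving out each library gave 0 to 1, the 1 being Kcna6 without homozygous replicate 4 (background 2.38%). At an adjusted p of 0.1 it was 5. The share of all genes at 0.1 was not determined for 8 or 7 libraries, so those counts have no background beside them. The TPM scales moved the members' median to -0.24 and -0.27 with 8 libraries and to -0.27 and -0.31 with 7, and the median of all genes to -0.14 and -0.17, and to -0.17 and -0.21. Under each of these alternatives the members' median stayed below 0, from -0.31 to -0.044. The cause of these shifts was not tested.

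For the 19 named members, 282 of 305 values with 8 libraries and 250 of 299 with 7 kept their direction and their side of the threshold. A further 7 and 22 passed it newly, 9 with 7 libraries (all Scn1a) no longer passed it, and 16 and 18 changed sign, none of them for a gene that had been called. On log2(TPM + 1) and log2(TPM + 0.1) with 8 libraries, Cacna1c gave -0.145 and -0.16, Cacna1h -0.084 and -0.092, Kcnab1 -0.042 and -0.043, Kcnab2 -0.17 and -0.17, and Kcnd2 -0.13 and -0.14. With 7 libraries these scales gave Cacna1c -0.17 and -0.19, Cacna1h -0.115 and -0.125, Kcnab1 -0.135 and -0.14, Kcnab2 -0.20 and -0.20, and Kcnd2 -0.17 and -0.18. Scaling by library totals gave Cacna1c -0.035 and Kcnd2 -0.0059 with 8 libraries, and Cacna1c -0.035, Kcnab1 -0.0053 and Kcnd2 -0.018 with 7. With 8 libraries, leaving out each library gave ranges that crossed 0 for Cacna1c (-0.048 to 0.061), Kcnd2 (-0.025 to 0.11) and Scn10a (-0.046 to 2.0). With 7 libraries they did for Cacna1c (-0.064 to 0.098), Kcna4 (-0.028 to 0.28), Kcnab1 (-0.13 to 0.16) and Kcnd2 (-0.062 to 0.14). The order of levels has no independent alternative, since FPKM and log2(TPM + 1) rescale the same values. Members under 1 TPM rest on few counts, which limits what could be detected for them.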

Other observations

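Among further genes beside the channels, the EAG, ERG and ELK potassium channels, the calcium- or sodium-activated potassium channels and the sodium channel partners had median log2 fold changes of -0.068, -0.075 and -0.021 with 7 libraries. In these lists 4 of 8, 6 of 9 and 6 of 8 genes tested were below 0, where 49.5% of all genes were. Motor neuron markers had a median of -0.57 with 7 libraries, with 5 of 6 below 0 and sums of 29.9 to 63.7 CPM in heterozygous against 30.1 to 48.7 CPM in homozygous libraries. By edgeR, DESeq2 and limma-voom 0 of the 6 were called. At an unadjusted p under 0.05 by edgeR, 2 were lower with 7 libraries and 0 with 8, where 9.94% and 8.9% of all genes were. The 4 thalamic genes, led by Rora, summed to 98.1 to 158 CPM in heterozygous and 107 to 135 CPM in homozygous libraries, and the 6 forebrain genes to 302 to 413 CPM and 322 to 439 CPM. The 9 cord Hox genes had median log2 fold changes of -0.485 with 8 libraries and -0.555 with 7. Of these 9, 8 and 9 were below 0, where 49.6% and 49.5% of all genes were, and 0 were called by edgeR.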
